A study of Mus musculus with 6 samples.

Results

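Matrix metalloproteinases (MMPs) are zinc-dependent proteases that cut collagens and other proteins of the extracellular matrix. The 10 genes described here, Mmp2, Mmp3, Mmp8, Mmp9, Mmp10, Mmp11, Mmp12, Mmp13, Mmp14 and Mmp19, were found by exact symbol in a table of 55453 gene symbols and are 10 of its 23 Mmp genes. They were selected by name with the counts of these same libraries already known. The difference of these 10 genes between the groups is therefore given as a description, without a p-value. A count of those past the threshold is given once and not read as a result. Statements with a p-value concern genes outside the 10.

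RNA was measured by poly(A) sequencing in 6 libraries whose source is labelled SB28, a mouse glioma cell line. The PP2AcKO group (3 libraries, called knockout) carries the genotype label PP2A KO, and the PP2AcWT group (3 libraries, called wild type) the genotype label wild type. The strain label of all 6 is C57BL/6, and no treatment, time or age is labelled. PP2Ac denotes the subunit of the serine and threonine phosphatase PP2A that holds its active site. The design text of the series instead describes SB28 tumours, subcutaneous or intracranial, in wild-type hosts and in LysMcrePP2Acfl/fl hosts, in which the LysM promoter drives Cre in myeloid cells. The labels do not settle which cells carried the deletion, whether the RNA came from culture or from tumour, how many clones or animals stand behind a group, or whether replicates were separate cultures. Should they not be, the p-values would describe technical spread between libraries alone. Ppp2ca, the gene of the labelled knockout, had 274, 244 and 247 CPM (counts scaled to library size) in the 3 wild-type libraries. Its level was 217, 187 and 193 CPM in those labelled knockout, with a log2 fold change of -0.36 (SE 0.08, edgeR adjusted p = 0.00377). The message was thus reduced but still abundant, and the labels name no altered exon.

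Library totals ran from 38735864 to 49344079 counts. Both libraries numbered 1 stood apart from the rest of their groups, with a chi-square per degree of freedom of 29.7 to 48.4 against the other libraries of the group, where the remaining pairs gave 3.41 and 4.61. Markers of cell types were read against the labelled source. The mesenchymal list summed to 7361 to 8437 CPM (wild type) and 3139 to 3823 CPM (knockout), and the glial and neuronal list to 473 to 520 and 243 to 268 CPM. Of the 13 glial and neuronal markers Nes and Sox2 were present, whereas 5 had no count in any library, Olig2 among them. Of the 6 tested, 0 were higher and 4 lower. Of 7 tested mesenchymal markers 3 were higher and 3 lower, and the sum is mostly Vim and Col1a1. The endothelial and pericyte list summed to 410 to 444 and 425 to 463 CPM, nearly all from Cdh5. Among 7 tested markers of this list 2 were higher and 3 lower. Of 8 lymphocyte markers 6 had no count in any library.

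MMPs are made as inactive proenzymes whose propeptide is cut off outside the cell or, for the membrane-type members, on the way to the surface. They are usually sorted by substrate and structure. Collagenases open fibrillar collagen, gelatinases degrade denatured collagen and basement membrane collagen, stromelysins have a broad range of matrix substrates, and membrane-type enzymes are anchored at the cell surface, where they can activate other members. Tissue inhibitors of metalloproteinases (TIMPs) block the active enzymes. In gliomas the family is studied mainly for its part in invasion through brain tissue. Many MMP genes are known to be induced through AP-1, the dimer of FOS and JUN proteins.

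Of the 10 genes, 5 lie together on chromosome 9, and their promoters are shown first because most of them hold the letters of an AP-1 site. The sequences are the 150 bases before the RefSeq start of the gene, GRCm38.p6, written 5′ to 3′ on the gene's own strand, with the AP-1 letters TGANTCA in capitals. Mmp13 (chr9:7272364-7272513, plus strand), Mmp3 (chr9:7445672-7445821, plus), Mmp10 (chr9:7502192-7502341, plus) and the second start of Mmp12 (chr9:7347224-7347373, plus) hold such a match. Mmp8 (chr9:7558279-7558428, plus), Mmp11 (chr10:75932503-75932652, minus) and Mmp14 (chr14:54431448-54431597, plus) hold none. The first start of Mmp12 (chr9:7344247-7344396, plus) holds none either and is not printed, so the sequence labelled Mmp12 is that of its second start. Mmp7 (chr9:7691940-7692089, plus, first start) is shown as a gene of the same cluster that holds the letters and had no count in any library.
Mmp13: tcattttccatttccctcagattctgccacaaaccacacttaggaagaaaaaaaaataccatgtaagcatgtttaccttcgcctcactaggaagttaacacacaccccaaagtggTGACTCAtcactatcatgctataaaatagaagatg
Mmp3: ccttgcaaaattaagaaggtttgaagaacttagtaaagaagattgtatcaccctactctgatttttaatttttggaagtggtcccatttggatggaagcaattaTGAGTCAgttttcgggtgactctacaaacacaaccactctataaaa
Mmp10: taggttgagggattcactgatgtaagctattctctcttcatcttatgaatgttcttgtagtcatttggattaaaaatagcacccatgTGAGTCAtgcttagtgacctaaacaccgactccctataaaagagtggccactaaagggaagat
Mmp12: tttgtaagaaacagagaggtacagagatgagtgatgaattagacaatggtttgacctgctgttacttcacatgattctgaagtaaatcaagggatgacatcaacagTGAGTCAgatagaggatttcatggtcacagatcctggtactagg
Mmp8: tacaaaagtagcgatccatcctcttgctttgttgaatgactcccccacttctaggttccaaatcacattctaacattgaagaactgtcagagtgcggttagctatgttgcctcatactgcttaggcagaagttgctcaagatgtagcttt
Mmp11: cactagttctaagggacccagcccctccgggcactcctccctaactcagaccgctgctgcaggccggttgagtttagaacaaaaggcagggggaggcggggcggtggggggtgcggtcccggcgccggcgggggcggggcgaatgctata
Mmp14: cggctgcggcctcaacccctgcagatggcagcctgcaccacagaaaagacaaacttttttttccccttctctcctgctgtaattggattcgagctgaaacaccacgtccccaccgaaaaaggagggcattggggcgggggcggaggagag
Mmp7: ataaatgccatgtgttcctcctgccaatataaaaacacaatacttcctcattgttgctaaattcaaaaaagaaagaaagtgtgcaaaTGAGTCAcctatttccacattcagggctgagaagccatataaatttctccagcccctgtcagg

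The first base of the AP-1 match stood 35 bases before the start in Mmp13, 46 in Mmp3 and 63 in Mmp10. It stood 44 bases before the second start of Mmp12 and 63 before the first start of Mmp7. A window of 300 bases around the start was available for 18 of the 23 Mmp genes, 7 of the 10 among them, and Mmp2, Mmp9 and Mmp19 had none. AP-1 letters occurred in the window of 8 of the 10 cluster genes (in 8 of their 12 windows) and in that of 0 of 8 Mmp genes elsewhere. Of all 32851 RefSeq mouse windows of this length 7.81% held them. The letters read as the same motif on both strands. The TATA box letters TATAAA, searched on both strands, were found in 9 of the 10 cluster genes and 1 of the 8 others, against 13.6% of all windows. The short ETS core GGAA, on either strand, was in 10 of 10 and 6 of 8, but also in 96% of all windows. The NF-kB letters (3 G, then 5 bases of any kind, then 2 C, searched on both strands and able to overlap GGAA) were in 3 of 10 and 6 of 8, against 50.8% of all windows. These counts are of genes with a match in any of their windows, whereas the shares of all windows are of single windows. A match is a description of the letters and not evidence of binding.

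**Figure D1:**
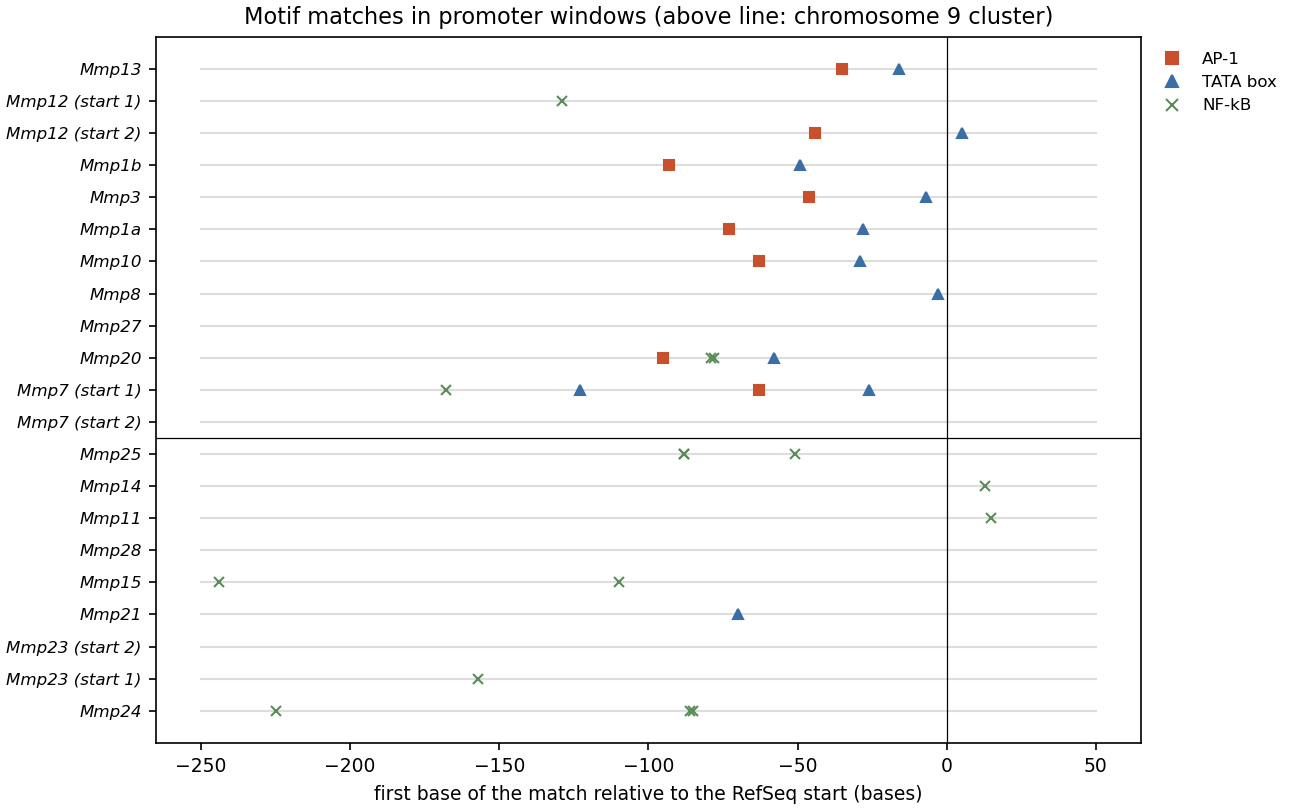
Positions of AP-1 (squares), TATA box (triangles) and NF-kB (crosses) letters in the 21 RefSeq windows of 18 Mmp genes, as bases from the RefSeq start, with the chromosome 9 cluster above the line. AP-1 squares appear in 8 of the 12 cluster windows and in none of those below the line.

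The stromelysin genes Mmp3 and Mmp10 had far more counts in the knockout. Mmp3 (ENSMUSG00000043613.8, chromosome 9, 7445822 to 7455975, plus strand, GRCm38), which encodes stromelysin 1, an enzyme that also activates other proenzymes, had 18.2, 14.6 and 14.9 CPM in wild type 1, 2 and 3. Knockout 1, 2 and 3 gave 2979.6, 2756 and 2926 CPM. The groups did not overlap. Their means of 15.9 ± 1.98 and 2887 ± 117 CPM (SD, n = 3) gave a 181-fold difference (log2 fold change 7.50, SE 0.12). In knockout 1, 2 and 3 this gene alone took 0.288%, 0.268% and 0.285% of all counts. Mmp10 (ENSMUSG00000047562.3, chromosome 9, 7502352 to 7510240, plus strand), which encodes stromelysin 2, had 2.08, 1.66 and 1.91 CPM in wild type against 215, 177 and 174 CPM in knockout. Every knockout library was above every wild-type library, by 100.01-fold in the fit (log2 fold change 6.64, SE 0.13). The transcripts of the pair are alike in part: of all stretches of 50 bases in Mmp10, 8.37% also occur in Mmp3, so a small part of the reads could be assigned to either.

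Mmp11 (ENSMUSG00000000901.17, chromosome 10, 75923222 to 75936496, minus strand), stromelysin 3, which unlike most members is activated inside the cell by furin-type convertases, differed little. Its libraries gave 15.4, 16.2 and 16.1 CPM in wild type against 20.9, 27.2 and 25.2 CPM in knockout. These groups did not overlap either, with a 1.54-fold higher knockout mean (log2 fold change 0.62, SE 0.11). Chchd10 has exons opposite to 5.58% of the exon bases of Mmp11, and no source used here gives the strand setting of the counting.

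The collagenase gene Mmp13 (ENSMUSG00000050578.10, chromosome 9, 7272514 to 7283331, plus strand), whose enzyme cuts fibrillar collagen and is known from cartilage and bone, was almost silent in wild type. It had 6, 5 and 1 counts in wild type 1, 2 and 3 against 14318, 10036 and 9681 in knockout 1, 2 and 3. In CPM this was 0.117, 0.113 and 0.0252 against 321, 245 and 247. The log2 fold change was 11.53 (SE 0.24), second from the top among all 14877 genes tested, and the size of the fold (2954) rests on the 12 counts of the wild-type libraries. None of its stretches of 50 bases occurs in another gene.

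Mmp8 (ENSMUSG00000005800.3, chromosome 9, 7558456 to 7568485, plus strand), the collagenase best known from neutrophil granules, stayed rare in both groups. Wild type 1, 2 and 3 gave 0, 2 and 0 counts, and knockout 1, 2 and 3 gave 16, 11 and 15, or 0.359, 0.268 and 0.383 CPM in the latter. The ratio of scaled counts was 22.7, with a 95% exact interval of 5.91 to 194 that covers counting error only. The 2 wild-type counts were both in wild type 2, so the fitted log2 fold change ran from 3.61 to 6.87 over the alternatives, the highest value being that without wild type 2.

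The gelatinase genes went separate ways. Mmp2 (ENSMUSG00000031740.8, chromosome 8, 92827291 to 92853420, plus strand), gelatinase A, which is activated at the cell surface by the Mmp14 product together with Timp2, was the single gene of the 10 that was lower in the knockout. Wild-type libraries had 34.3, 37.6 and 39.6 CPM and knockout libraries 5.62, 6.17 and 5.19 CPM, without overlap. The means of 37.2 ± 2.64 and 5.66 ± 0.495 CPM (SD, n = 3) differed 6.56-fold (log2 fold change -2.71, SE 0.10). Mmp9 (ENSMUSG00000017737.2, chromosome 2, 164940780 to 164955850, plus strand), gelatinase B, had 1, 0 and 2 counts in wild type and 8, 5 and 9 in knockout, too few for the filter on low counts. Its ratio of scaled counts was 7.93 (95% exact interval 2.38 to 41.4), from 0.0233 ± 0.0254 to 0.177 ± 0.054 CPM.

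Mmp14 (ENSMUSG00000000957.11, chromosome 14, 54431612 to 54445364, plus strand), the membrane-type 1 enzyme, had the highest wild-type level of the 10 and differed least. Its values were 207, 235 and 231 CPM in wild type against 264, 299.8 and 289.7 CPM in knockout. The lowest knockout library lay above the highest wild-type library, with a 1.27-fold higher mean (log2 fold change 0.34, SE 0.08).

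Of the remaining enzymes, Mmp12 (ENSMUSG00000049723.14, chromosome 9, 7344381 to 7369499, plus strand), the macrophage elastase, had 7, 1 and 2 counts in wild type and 531, 393 and 382 in knockout, or 0.137, 0.0227 and 0.0504 CPM against 11.9, 9.59 and 9.76 CPM. The log2 fold change was 7.08 (SE 0.28). Because 7 of its 10 wild-type counts were in wild type 1, it was 8.07 without that library and 7.97 without both libraries numbered 1. Mmp19 (ENSMUSG00000025355.7, chromosome 10, 128790910 to 128800824, plus strand), an enzyme of basement membrane proteins, gave 21.6, 19.6 and 18.7 CPM in wild type against 51.9, 52.4 and 50.1 CPM in knockout. That is 2.58-fold higher (log2 fold change 1.37, SE 0.08), with narrow spread in both groups. Tmem198b has exons opposite to 22.3% of the exon bases of Mmp19, and 21.2% of its stretches of 50 bases occur there too.

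**Figure D2:**
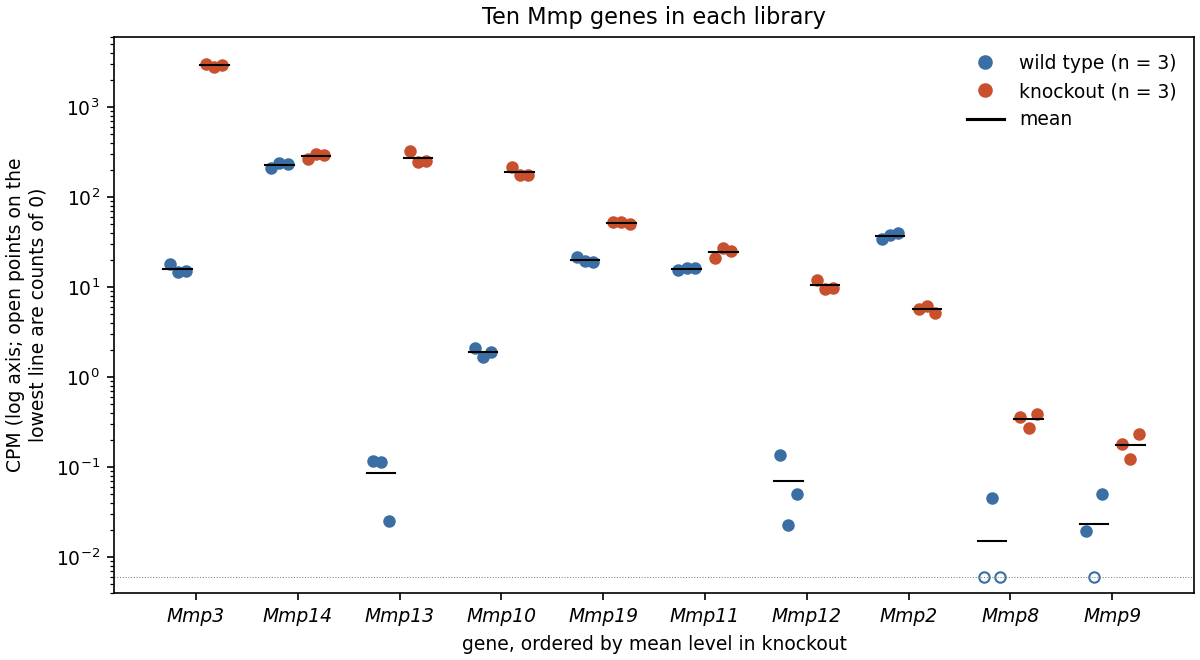
CPM of the 10 genes in each library on a log axis, with the mean of each group as a line and counts of 0 as open points on the lowest line. Mmp3 reaches 2887 CPM in the mean of the knockout libraries, and Mmp2 is the gene whose knockout points lie below its wild-type points.

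In this set, 9 genes passed the filter on low counts, 8 past the threshold and higher and 1 past it and lower, where 64% of all tested genes passed the threshold, 31.9% as higher and 32.1% as lower. Mmp8, Mmp12 and Mmp13 passed the filter through the knockout libraries alone, which limits the direction they could show. Groups did not overlap in any of the 10 (9 higher, 1 lower), the untested Mmp9 among them, where 68.3% of all tested genes did not overlap. The choice of the genes used this comparison, so nothing is read from these counts. The range of the differences is the description: log2 fold changes from -2.71 to 11.53, where the median of all tested genes was -0.01.

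Spread between the libraries of a group differed by gene, also among abundant genes. The coefficient of variation was 4.05% for Mmp3 and 2.34% for Mmp19 in knockout, and 61.1% for Mmp13 and 85.2% for Mmp12 in wild type, where counts were few. Mmp3, Mmp10, Mmp12 and Mmp13 had the highest value of the group in wild type 1 and again in knockout 1, whereas Mmp11 and Mmp14 had the lowest in both. Without both libraries numbered 1 the log2 fold change was 7.60 for Mmp3, 6.63 for Mmp10, 11.69 for Mmp13, 0.70 for Mmp11 and 0.35 for Mmp14. Of the 9 tested genes, Mmp8 (3.61 without both) and Mmp12 moved by over 1.5 times. In RNA from many cells, more cells that express a gene and more RNA per cell cannot be told apart.

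Levels of different genes were compared per length of exon, as RPKM (CPM per kilobase of exon). In wild type the order was Mmp14 (37.6 ± 2.52 RPKM), Mmp2 (11.03 ± 0.785), Mmp3 (8.82 ± 1.10), Mmp11 (5.73 ± 0.169), Mmp19 (5.65 ± 0.42) and Mmp10 (1.09 ± 0.123). Mmp13, Mmp12, Mmp9 and Mmp8 followed, all under 0.05 RPKM in the mean. Mmp11 and Mmp19 overlapped between libraries, and so did each neighbouring pair among the lowest 4. In knockout the order was Mmp3 (1603 ± 64.9 RPKM), Mmp10 (109.7 ± 13.3), Mmp13 (101.4 ± 16.1), Mmp14 (47.7 ± 3.10), Mmp19 (14.6 ± 0.341), Mmp11 (8.80 ± 1.15), Mmp2 (1.68 ± 0.147), Mmp12 (1.44 ± 0.178), Mmp8 (0.139 ± 0.0249) and Mmp9 (0.05 ± 0.0153). Here Mmp10 overlapped with Mmp13 and Mmp2 with Mmp12. Among 14763 tested genes with a length, Mmp3 moved from rank 5136 to rank 11, Mmp10 from 10640 to 321, Mmp13 from 14478 to 357, and Mmp2 from 4410 to 9848.

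Summed over all 23 Mmp genes, the level was 71.6, 75.4 and 74.8 RPKM in wild type and 1991, 1823 and 1913 RPKM in knockout, 25.8-fold higher on average. Without Mmp3 the ratio was 4.70, and without Mmp3 and Mmp13 it was 3.15. The composition turned over as well. Mmp14 made up 50.8 ± 2.06% of the wild-type sum (SD, n = 3) and 2.51 ± 0.268% of the knockout sum, although its own level was not lower. Mmp3 went from 11.97 ± 1.84% to 84.0 ± 0.912%, and Mmp2 from 14.9 ± 0.739% to 0.0882 ± 0.0107%. By class, the collagenases Mmp1a, Mmp1b, Mmp8 and Mmp13 went from 0.489 to 117 RPKM and the stromelysins from 15.6 to 1722 RPKM. The gelatinases went from 11.035 to 1.73 RPKM, and the membrane-type genes from 39.1 to 48.3 RPKM. The gelatinase sum was mostly Mmp2, whereas Mmp9 was higher in knockout. The membrane-type sum was mostly Mmp14, whereas Mmp16 and Mmp24 were lower in knockout.

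**Figure D3:**
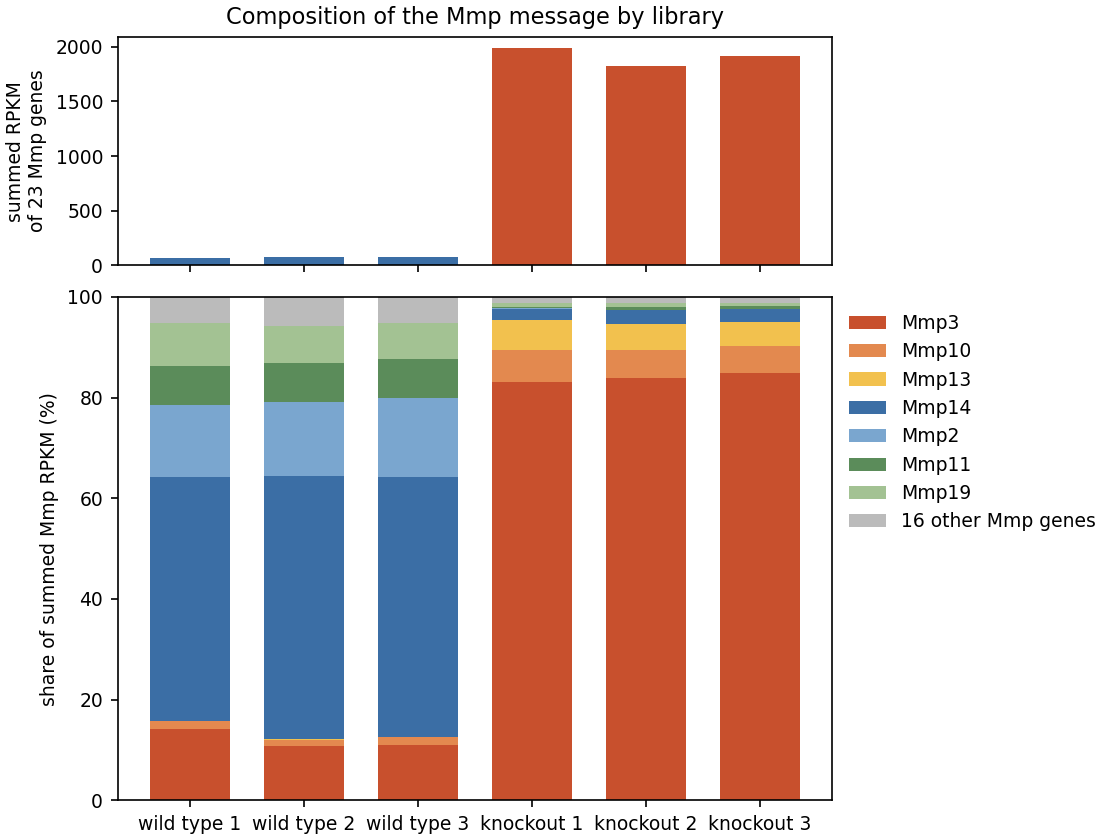
Summed RPKM of 23 Mmp genes in each library (upper bars) and the share of each gene in that sum (lower bars). Mmp14 holds 48.5% to 52.3% of the sum in the wild-type libraries, and Mmp3 holds 83.1% to 84.9% in the knockout libraries.

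Of the other 13 Mmp genes, 8 passed the filter, of which 5 were higher in the knockout, 2 were lower and 1 did not pass the threshold (edgeR, adjusted over all genes), with a median log2 fold change of 1.44. Past the threshold were 87.5% of these 8, against 64% of all tested genes. The filter shapes this count and the median: Mmp1a, Mmp23 and Mmp27 passed it through the knockout libraries alone and Mmp24 through the wild-type libraries alone. For these 4 it makes a difference more likely and limits its direction. Mmp1b, one of the mouse genes related to human collagenase 1, rose from 0.508 ± 0.141 to 19.9 ± 1.30 CPM (5.28, SE 0.16, adjusted p = 2.73e-08, where the first value in brackets is the log2 fold change, as in the sentences that follow). Mmp1a, its close relative, annotated as a polymorphic pseudogene, rose from 0.202 ± 0.0618 to 4.10 ± 0.279 CPM (4.34, SE 0.21, adjusted p = 3.07e-07). Of the stretches of 50 bases in Mmp1a 8.15% occur in Mmp1b, and 11.8% of those in Mmp1b occur in Mmp1a. Exons of Mmp12 cover 10.8% of the exon bases of Mmp1b on the other strand. Mmp27 had 0 counts in wild type and 38, 29 and 20 in knockout, at least 31.4-fold higher if wild type is set to a floor of 3 counts in all (adjusted p = 0.000101). Mmp28, also called epilysin, rose from 7.53 ± 0.899 to 15.3 ± 1.93 CPM (1.02, SE 0.13, adjusted p = 0.000121), with exons of 1700020L24Rik opposite to 12% of its exon bases. Mmp23 rose from 12 to 41 counts (1.85, SE 0.44, adjusted p = 0.00546).

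Both Mmp genes outside the 10 that fell belong to the membrane-type enzymes. Mmp16 fell from 11.7 ± 0.878 to 3.63 ± 0.0627 CPM (-1.69, SE 0.10, adjusted p = 1.27e-06). Mmp24 fell from 50 to 5 counts (-3.12, SE 0.51, adjusted p = 0.00061), with exons of BC029722 opposite to 13.6% of its exon bases. The membrane-type gene Mmp17, at 0.386 ± 0.0584 and 0.511 ± 0.224 CPM, did not pass (0.42, SE 0.34, adjusted p = 0.308), and its groups overlapped. Mmp15, Mmp21 and Mmp25 had 12 or fewer counts per group. Mmp7 and Mmp20 had none, which allows up to 0.0222 CPM in wild type against 0.0240 CPM in knockout by the same floor.

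Many of the genes lie together. A stretch of 427 kb on chromosome 9 (7272514 to 7699585) holds 10 Mmp genes in the order Mmp13, Mmp12, Mmp1b, Mmp3, Mmp1a, Mmp10, Mmp8, Mmp27, Mmp20 and Mmp7. Of these 10, the genes Mmp3, Mmp8, Mmp10, Mmp12 and Mmp13 were selected with this comparison known, and Mmp20 and Mmp7 had no count. That leaves Mmp1a, Mmp1b and Mmp27, described above, of which Mmp1a and Mmp27 passed the filter on low counts through the knockout libraries alone. Around the cluster, within 1 Mb on either side, 11 other genes were tested: 1 was higher, 5 were lower and 5 did not pass, with a median log2 fold change of -0.29, and 54.5% passed against 64% of all tested genes. Dcun1d5, which encodes a factor of cullin neddylation and lies 64.3 kb before the cluster, rose from 45.7 ± 3.95 to 73.7 ± 2.19 CPM (0.69, SE 0.08, adjusted p = 7.26e-05). The nearest tested gene on the other side, the pseudogene Gm10709 at 52.1 kb, did not pass (0.23, SE 0.31, adjusted p = 0.547). Beyond it, Tmem123 fell from 60.4 ± 5.75 to 42.1 ± 5.01 CPM (-0.52, SE 0.10, adjusted p = 0.00212). Birc3, an inhibitor of apoptosis that is also a target of NF-kB, fell from 12.9 ± 0.532 to 6.77 ± 0.26 CPM (-0.93, SE 0.09, adjusted p = 2.22e-05). Within the cluster, Mmp7 and Mmp20 hold the AP-1 letters and had no count. Mmp8 and Mmp27, which lack them in their windows, had 2 and 0 counts in wild type against 42 and 87 in knockout. These last genes passed the filter on low counts through the knockout libraries alone. The part of the letters in these levels was not tested.

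**Figure D4:**
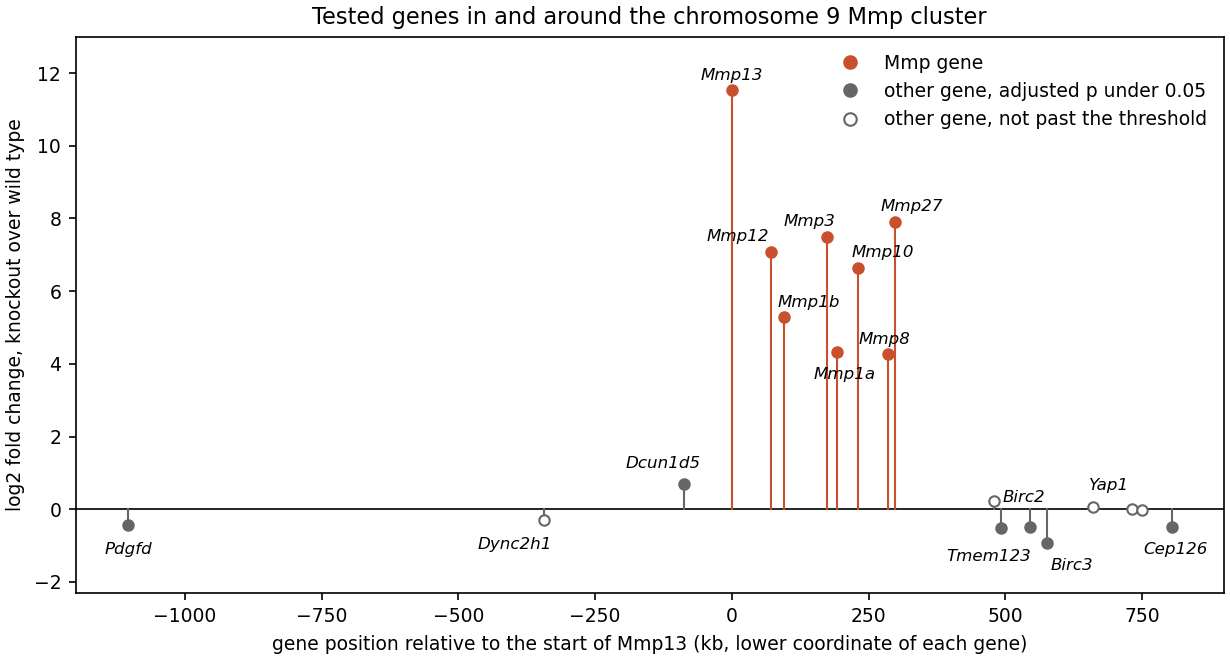
Log2 fold change, knockout over wild type, of each tested gene in and around the chromosome 9 Mmp cluster, by distance from the start of Mmp13 in kb. The 8 tested Mmp genes lie at 4.26 or higher and the 11 other genes between -0.93 and 0.69. Of these Mmp genes, Mmp3, Mmp8, Mmp10, Mmp12 and Mmp13 were selected with this comparison known. Mmp8, Mmp12, Mmp13, Mmp1a and Mmp27 passed the filter on low counts through the knockout libraries alone. The split is therefore not a test of the cluster. The values of Mmp27 and Mmp8 rest on 0 and 2 wild-type counts and depend on the prior count of the fit.

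Among genes of MMP inhibitors, 4 of 8 were tested, 3 higher and 1 lower (median log2 fold change 0.21), where the median of all tested genes was -0.01. All 4 passed the threshold, where 64% of all tested genes did, 31.9% as higher and 32.1% as lower. Timp3, which binds to the matrix and inhibits ADAM proteases as well, fell from 142 ± 8.91 to 36.4 ± 1.85 CPM (-1.96, SE 0.08, adjusted p = 9.83e-08), with exons of Syn3 opposite to 21.3% of its exon bases. Reck, a membrane-anchored inhibitor, rose from 3.16 ± 0.12 to 8.47 ± 0.182 CPM (1.42, SE 0.10, adjusted p = 2.74e-06). Timp1 was at 523 ± 28.8 and 601 ± 30 CPM (0.20, SE 0.07, adjusted p = 0.0324) and Timp2 at 915 ± 24.4 and 1058 ± 37.3 CPM (0.21, SE 0.06, adjusted p = 0.0159). Both small differences lost the call with upper-quartile scaling and without knockout 2, knockout 3 or wild type 3, which each left Reck as the 1 inhibitor called higher. Timp1 also lost it without wild type 2. Per length, the summed TIMP level was 841 ± 29.2 RPKM in wild type and 953 ± 43.1 RPKM in knockout. The summed MMP level was 0.088 ± 0.00487 times that of the TIMPs in wild type and 2.01 ± 0.178 times in knockout (SD, n = 3). Mmp3 held 84.0% of the knockout MMP sum. Without Mmp3 that sum was 306 ± 26.5 RPKM in knockout, below the summed TIMP level. These sums compare messages and not active enzyme.

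Of 11 tested genes that activate, anchor or clear MMPs, 5 were higher, 2 lower and 4 not past the threshold (median log2 fold change 0.06). The 63.6% past the threshold is close to the 64% of all tested genes. Lcn2, whose product can form a complex with the Mmp9 protein, rose from 0.0486 ± 0.0427 to 540 ± 25.3 CPM (13.27, SE 0.18, adjusted p = 6.7e-10). Wild type 1 held 5 of its 7 wild-type counts, and the value was 14.29 without that library and 14.33 without both libraries numbered 1. Plaur, the urokinase receptor, rose from 64.4 ± 4.78 to 165 ± 19.0 CPM (1.35, SE 0.10, adjusted p = 4.2e-06), and Itgb3, an integrin chain, from 15.95 ± 1.26 to 22.6 ± 2.03 CPM (0.50, SE 0.10, adjusted p = 0.00195). Plat, the tissue plasminogen activator, fell from 179 ± 3.79 to 45.3 ± 1.93 CPM (-1.98, SE 0.07, adjusted p = 4.35e-08). The other lower gene was Itgav, the alpha chain that pairs with Itgb3, named after its value was seen (-0.32, SE 0.08, adjusted p = 0.00631). With the replicate number as a block, or without both libraries numbered 1, 4 genes of this list were lower.

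The related ADAM and ADAMTS proteases were mostly lower, with 14 of 20 tested genes lower, 3 higher and 3 not past the threshold (median log2 fold change -0.51), so that 85% passed it against 64% of all tested genes. Adam33 fell from 6.39 ± 0.635 to 0.145 ± 0.0442 CPM (-5.44, SE 0.21, adjusted p = 9.05e-08) and Adam22, a member without protease activity, from 17.9 ± 0.338 to 4.43 ± 0.246 CPM (-2.02, SE 0.09, adjusted p = 2.2e-07). Adamts1, which cuts proteoglycans, fell from 54.3 ± 2.89 to 19.1 ± 1.06 CPM (-1.51, SE 0.08, adjusted p = 5.22e-07). Adamts9 fell from 48.4 ± 3.11 to 21.1 ± 1.35 CPM (-1.20, SE 0.08, adjusted p = 3.14e-06), with opposite exons of A730049H05Rik over 9.18% of its exon bases.

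Of 28 tested matrix proteins that MMPs cut, 12 were higher, 6 lower and 10 not past the threshold (median log2 fold change 0.14). The 64.3% past the threshold is close to the 64% of all tested genes. Col1a2, a chain of type I collagen, fell from 855 ± 114 to 15.01 ± 2.08 CPM (-5.83, SE 0.15, adjusted p = 1.27e-08). Col1a1, the other chain of that collagen, named after its value was seen, did not pass and its groups overlapped. It was at 1931 ± 365 and 1459 ± 310 CPM (-0.41, SE 0.18, adjusted p = 0.0726). Dcn, the collagen-binding proteoglycan decorin, rose from 1.28 ± 0.351 to 32.7 ± 4.54 CPM (4.66, SE 0.19, adjusted p = 1.08e-07). Tnc, the glycoprotein tenascin C, rose from 604 ± 44.4 to 1672 ± 63.0 CPM (1.47, SE 0.08, adjusted p = 4.62e-07). Spp1, which encodes osteopontin, rose from 3804 ± 495 to 15395 ± 1001 CPM (2.02, SE 0.11, adjusted p = 5.02e-07), with a further annotated gene over 18.8% of its exon bases.

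Transcription factors known to act on MMP promoters or enhancers were mostly higher: of 25 tested, 18 were higher, 2 lower and 5 not past the threshold (median log2 fold change 0.87), so that 80% passed it, where 64% of all tested genes did. Atf3, an AP-1 partner, rose from 12.3 ± 0.351 to 93.5 ± 5.25 CPM (2.93, SE 0.08, adjusted p = 1.34e-08). Fosl1, the AP-1 subunit FRA-1, rose from 147 ± 12.8 to 455 ± 39.7 CPM (1.63, SE 0.09, adjusted p = 8.72e-07), with exons of Ccdc85b opposite to 57.2% of its exon bases. Ets2 rose from 111 ± 3.87 to 393 ± 8.54 CPM (1.82, SE 0.06, adjusted p = 5.06e-08) and Stat3 from 120 ± 4.72 to 254 ± 8.64 CPM (1.08, SE 0.06, adjusted p = 1.23e-06). The 2 lower genes, named after their values were seen, were Jun, the main partner of FOS proteins (330 ± 31.1 to 266 ± 37.2 CPM, -0.31, SE 0.11, adjusted p = 0.0366), and Etv4 (79.0 ± 8.39 to 60.9 ± 5.50 CPM, -0.37, SE 0.10, adjusted p = 0.00932). Without knockout 1, wild type 2 or wild type 3 the list had 1 lower gene. The part of these factors in the MMP levels was not tested.

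**Figure D5:**
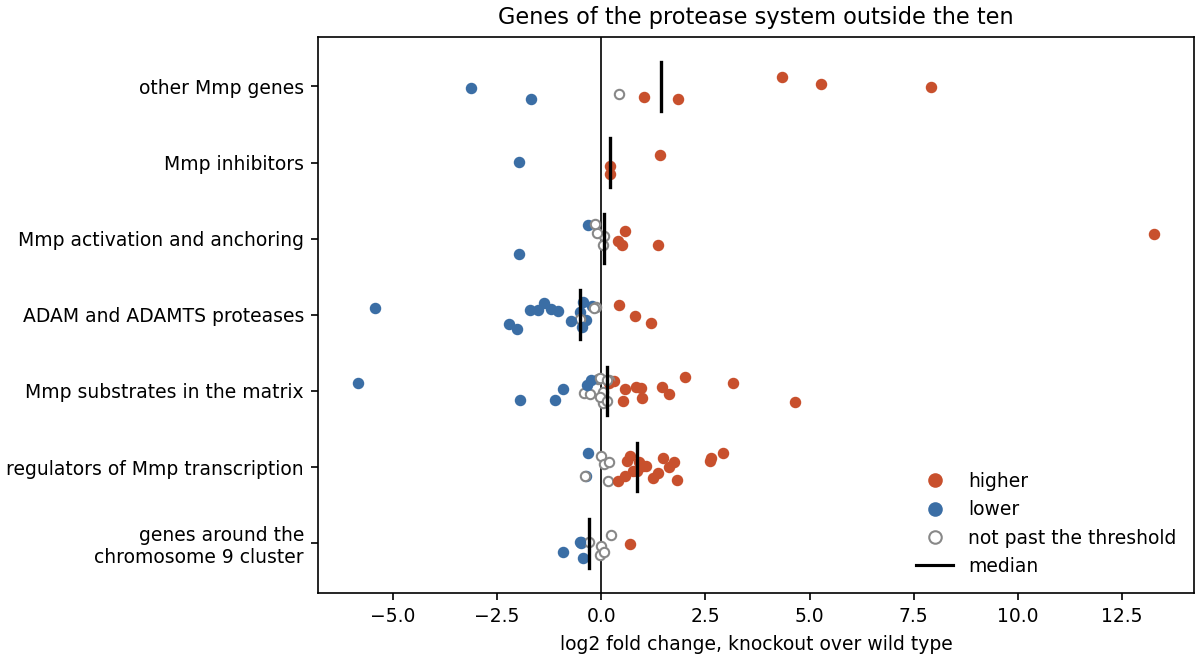
Log2 fold change of each tested gene in 7 lists of the protease system outside the 10 genes, coloured by the edgeR call at an adjusted p of 0.05, with list medians as bars. Medians run from -0.51 for ADAM and ADAMTS proteases to 1.44 for the other Mmp genes; the highest point of the latter is Mmp27, which had 0 wild-type counts.

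Because Mmp8 and Mmp9 are abundant in neutrophils and Mmp12 in macrophages, markers of these cells were read beside them. Of 11 neutrophil markers S100a9, Mpo, Retnlg and Csf3r had no count in any library. The list summed to 0.101 to 0.215 CPM (wild type) and 3.43 to 4.09 CPM (knockout), and in knockout nearly all of it came from S100a8 (6 counts in all wild-type libraries, 433 in all knockout libraries). Of 16 macrophage and microglia markers 6 had no count, among them Adgre1, Tyrobp and the C1q genes. That list summed to 87.7 to 108.1 CPM (wild type) and 44.4 to 54.2 CPM (knockout), mostly from Tmem119. Of its 3 tested markers 2 were higher and 1 was lower. By group, Mrc1 had 66 and 263 counts and Cd68 403 and 551, whereas Tmem119 had 12896 and 5412. Itgam had 0 and 2 counts, Csf1r 23 and 10, Ptprc 31 and 11, and Lyz2 1 and 44. The part of such cells in the levels of Mmp8, Mmp9 and Mmp12 was not tested beyond these values.

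Outside the family, the genes whose pattern lay nearest to that of Mmp13 over the 6 libraries were C3, Lcn2, Lilr4b, Steap4 and Lilrb4a. Nearness was the Euclidean distance between centred log2 CPM over 10208 genes with a mean of at least 5 CPM in a group. The distances were 1.94, 2.06, 2.41, 2.59 and 3.20. All 5 shared with Mmp13 a wild-type level under 0.2 CPM, which their selection by nearness to Mmp13 makes likely. Their knockout means ran from 25.4 CPM for Lilrb4a to 540 CPM for Lcn2, with Mmp13 at 271 ± 43.2 CPM.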

How the data were processed

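The authors deposited raw read counts per gene symbol, 1 column for each of the 6 libraries, with 0 columns of other samples. Per the submitters' processing notes, which list tools but no roles, these included limma 3.48.3, edgeR 3.34.0, HTSeq 0.11.2, STAR 2.7.1a and fastp 0.20.0, and builds GRCm38 and mm10. Annotation release and strand setting of the counting: not given in the sources used here. The counts carry no molecular identifiers, so intervals and floors cover counting error only.

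Of 55453 symbols 27491 had a count, and filterByExpr of edgeR 4.0.16 (R 4.3.3) kept 14877. TMM scaling (factors 0.967 to 1.035) and edgeR's quasi-likelihood test followed, with Benjamini-Hochberg adjusted p over the 14877 genes and a threshold of 0.05. CPM use TMM-scaled library sizes, and RPKM the summed exon length from GENCODE mouse annotation on GRCm38, where 54402 symbols matched 1 gene, 108 several and 943 none. A group with 1 to 3 counts gives a ratio with its 95% exact interval, and a group at 0 a bound from 3 counts over the group. Promoters are RefSeq windows, searched by letters.

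The 10 genes, the lists of pathway genes and markers, and the tests were chosen with earlier results of these data known. Named are the 10 genes, tested Mmp genes, up to 4 genes per list by adjusted p plus the inhibitors Timp1, Timp2, Timp3 and Reck, the nearest tested neighbour on each side of the cluster with up to 2 more, the 5 genes nearest to Mmp13, and Ppp2ca. Replicate numbers come from the titles: deviations from group means of same-numbered libraries correlated at 0.44, 0.16 and 0.15, and those of differently numbered libraries at -0.30 to 0.19, so that the pair numbered 1 alone stands out. The numbers were treated as pairs, since all 3 values were above 0.1, in an alternative fit with the number as a block. Other alternatives were DESeq2 1.42.0, upper-quartile factors, no filter, each library left out in turn and both libraries numbered 1 left out.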

Additional observations from a re-analysis of the deposited data

How the results depend on the processing

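Across 627 values recomputed under 11 alternatives, 603 kept their direction and side of the threshold or moved little. Moving little was the measure for counts and for the genes given without a p-value. For the 9 tested genes of the 10 no direction reversed. The exception in direction was Mmp17, a gene without a call, at -0.061 without both libraries numbered 1. With upper-quartile factors, which shifted the median of all genes by -0.06, 1 inhibitor gene was called higher. With the replicate number as a block, 11495 genes were called in place of 9525 and 4 genes of the activation list were lower, also 4 without both libraries numbered 1 (11123 genes called). Among the genes the naming rule took from the lists, the block changed no call. Leaving out each library in turn gave 1 to 3 inhibitor genes called higher and 1 to 3 regulators called lower. The cause of these shifts was not tested. Low counts limit Mmp8, Mmp9, Mmp12 and Mmp13 in wild type, where the 3 libraries together held 2, 3, 10 and 12 counts.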
